A study of Mus musculus with 39 samples.

Results

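Matrix metalloproteinases (Mmp), Adamts proteases (a disintegrin and metalloproteinase with thrombospondin motifs) and tissue inhibitors of metalloproteinases (Timp) were followed in 39 mouse mammary tumours by RNA sequencing. The members were all genes of the count table whose symbol is Mmp, Adamts or Timp followed by a number, with a letter a or b allowed after an Mmp number. This gave 46 of 53715 genes, made up of 23 Mmp, 19 Adamts and 4 Timp genes. The tumours were adenocarcinomas of no special type from adult females. All carried BlgCre, Brca1flox/flox and p53 +/-, so that Cre recombinase was expressed from the beta-lactoglobulin promoter, which is active in mammary epithelium, and 1 germline p53 allele was missing. The groups differed in a conditional allele of Lyn, which encodes a Src-family kinase, with 13 tumours that were Lynfl/fl, 14 that were Lynfl/wt and 12 that were Lynwt/wt. The submitters also placed 10 tumours in PCA group 3/4 and 29 in PCA group 1/2, from a principal component analysis of the expression data, and called 13 tumours Lyn-high and 13 Lyn-low. The PCA and Lyn groups were therefore made from the same expression values that are compared here. By genotype, 1 of the PCA group 3/4 tumours was Lynfl/fl, 6 were Lynfl/wt and 3 were Lynwt/wt, while 12 of the PCA group 1/2 tumours were Lynfl/fl, 8 were Lynfl/wt and 9 were Lynwt/wt. Of the PCA group 3/4 tumours, 6 were Lyn-high and 0 were Lyn-low, whereas PCA group 1/2 held 7 Lyn-high and 13 Lyn-low tumours, so the PCA and Lyn comparisons share tumours. Cre acts in the epithelium, so stromal and immune cells of a tumour piece are not a target of the Lyn deletion, and no tumour-free mammary tissue was analysed here.

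Assigned counts ran from 50490044 to 83122719 per tumour. There were 28 animals, and 9 of these contributed several tumours (20 in all), so p-values measure the spread between tumours, some of them from the same animal. Lyn, the targeted gene, had a median of 26.1 CPM (a count scaled to the size of its library) in Lynfl/fl tumours (range 10.2 to 90.8), 46.5 CPM in Lynfl/wt tumours (25.4 to 82.2) and 48.4 CPM in Lynwt/wt tumours (27.4 to 181). These ranges overlapped, and a gene-level count also takes reads from exons outside the deleted part. The 9 luminal and pan-epithelial markers summed to between 1808 and 14218 CPM per tumour. By the database ID in the titles, 7 of 10 PCA group 3/4 tumours and 11 of 29 PCA group 1/2 tumours had the ID prefix 20 (the rest 21), as did 9 of 13 Lyn-high and 4 of 13 Lyn-low tumours.

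Mmp and Adamts proteins are zinc enzymes that are made as inactive precursors and, once the propeptide is removed, cut matrix proteins, growth factor precursors and cell surface proteins. Mmps are grouped by the substrates they were first found to cut (collagenases, gelatinases, stromelysins, matrilysin) or by an anchor in the cell membrane. Many Adamts enzymes cut large proteoglycans or trim procollagen, and Timps block the active site of the proteases. In the mammary gland these enzymes take part in ductal branching and in the remodelling of the gland after lactation, and in tumours much of the Mmp RNA is known to be made by stromal and immune cells. In bulk tumour RNA, fewer cells of a type and less RNA per cell cannot be told apart.

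The Gencode vM21 gene annotation places 10 of the Mmp genes side by side on chromosome 9 of the mouse genome (build GRCm38), in the order Mmp13, Mmp12, Mmp1b, Mmp3, Mmp1a, Mmp10, Mmp8, Mmp27, Mmp20 and Mmp7. Promoter windows of 250 bases before to 50 bases after a start were taken from RefSeq (GRCm38.p6), and 32 of the 46 members had a window, the 10 cluster genes among them. The AP-1 motif TGANTCA, the site of Fos and Jun dimers, was found in 8 of the 10 cluster genes (all but Mmp8 and Mmp27) and in 0 of the other 22 members with a window, against 7.81% of all 32851 windows, counting both strands. The TATA motif TATAAA was found in 9 of the 10 cluster genes, against 13.6% of all windows, and the TCF/LEF motif CTTTGAT was found among the members in Mmp7 only, against 3.73% of all windows. The NF-kB motif GGGANTTCC, in 1.68% of all windows, and a longer NF-kB form were found in 0 of the members with a window. A match describes letters in a window and not a site in use. In Mmp12 the second start had both motifs, while the window of the first start, not shown, held neither. The windows of 5 of the cluster genes with both motifs follow, 5′ to 3′ on the plus strand, with AP-1 and TATA motifs in capitals.
Mmp7, chr9:7691840-7692139: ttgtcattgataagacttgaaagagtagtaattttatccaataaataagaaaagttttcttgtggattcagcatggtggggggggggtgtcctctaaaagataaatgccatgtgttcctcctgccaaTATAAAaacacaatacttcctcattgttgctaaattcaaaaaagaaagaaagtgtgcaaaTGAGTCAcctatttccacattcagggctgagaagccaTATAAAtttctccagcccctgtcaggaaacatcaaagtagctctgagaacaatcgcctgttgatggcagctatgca
Mmp20, chr9:7627981-7628280: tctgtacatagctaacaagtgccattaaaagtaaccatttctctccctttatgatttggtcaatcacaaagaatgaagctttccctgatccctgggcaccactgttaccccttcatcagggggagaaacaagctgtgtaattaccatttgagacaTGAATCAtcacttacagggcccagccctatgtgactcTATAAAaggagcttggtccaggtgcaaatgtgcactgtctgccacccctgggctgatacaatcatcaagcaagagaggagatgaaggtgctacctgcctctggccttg
Mmp12, second start, chr9:7347124-7347423: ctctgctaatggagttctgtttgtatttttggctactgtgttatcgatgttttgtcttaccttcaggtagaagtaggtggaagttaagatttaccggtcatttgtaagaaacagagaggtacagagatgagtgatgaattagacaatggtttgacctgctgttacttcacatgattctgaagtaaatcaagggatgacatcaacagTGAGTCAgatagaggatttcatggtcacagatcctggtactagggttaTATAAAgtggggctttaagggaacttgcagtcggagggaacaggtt
Mmp3, chr9:7445572-7445871: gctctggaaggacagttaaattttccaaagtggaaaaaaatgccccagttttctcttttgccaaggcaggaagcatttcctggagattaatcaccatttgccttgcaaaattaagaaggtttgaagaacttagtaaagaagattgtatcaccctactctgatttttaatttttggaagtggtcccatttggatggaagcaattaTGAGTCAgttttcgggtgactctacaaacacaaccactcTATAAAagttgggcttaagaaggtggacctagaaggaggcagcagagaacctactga
Mmp13, chr9:7272264-7272563: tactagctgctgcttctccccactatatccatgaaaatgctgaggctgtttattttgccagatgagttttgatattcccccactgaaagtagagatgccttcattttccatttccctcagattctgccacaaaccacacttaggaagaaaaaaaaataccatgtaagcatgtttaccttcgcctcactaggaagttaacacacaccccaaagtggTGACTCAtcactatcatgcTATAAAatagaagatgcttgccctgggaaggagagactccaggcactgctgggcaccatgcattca
The AP-1 letters lie at -63 to -57 in Mmp7, -95 to -89 in Mmp20, -44 to -38 in Mmp12, -46 to -40 in Mmp3 and -35 to -29 in Mmp13, counted from the RefSeq start. In Mmp7 the nearer TATA motif lies at -26 to -21.

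Levels per length were compared as CPM per kilobase of exon. Averaged over the 39 tumours, Mmp7 (matrilysin, a small secreted protease of epithelial cells) had the highest mean level per length, 96.3 CPM per kb, but its median was 0.560 CPM per kb, so the mean rests on few tumours. The 2 highest tumours held 82.3% of the summed Mmp7 CPM. Next came Timp2 with a mean of 81.9 CPM per kb (median 63.1) and Timp1 with 66.3 CPM per kb (median 35.8). Mmp14, the membrane-type protease that activates the Mmp2 precursor, had a mean of 35.8 CPM per kb and a median of 35.2. Mmp15, another membrane-type protease, had a mean of 32.5 CPM per kb and Timp3, the inhibitor that binds to the matrix, 29.4 CPM per kb. Neighbours in this order were not well separated. Mmp7 lay above Timp2 in 6 of 39 tumours, Timp2 above Timp1 in 27, Timp1 above Mmp14 in 19, Mmp14 above Mmp15 in 25 and Mmp15 above Timp3 in 21. Among the 40 members tested below, the most even was Mmp14 (SD of log2 CPM over all tumours 0.66), followed by Mmp11 (SD 0.68), while Mmp7 (SD 4.23) and Adamts18 (SD 3.16) varied most.

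**Figure D1:**
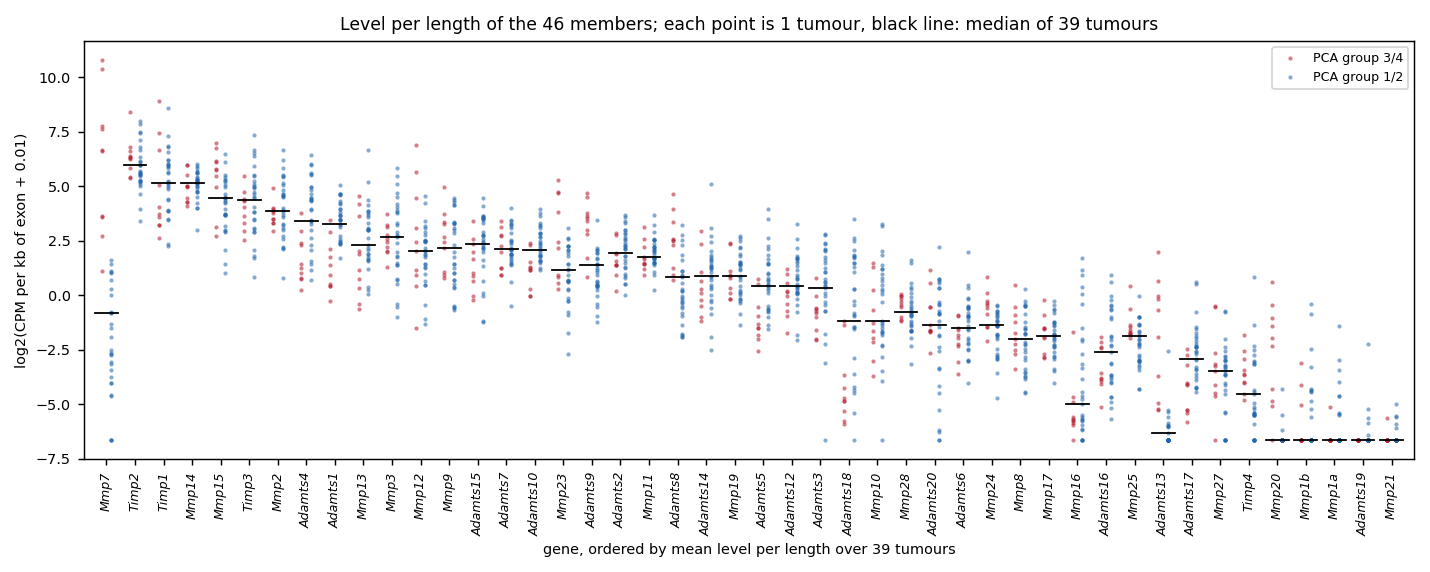
Level per length of the 46 members, as log2 of CPM per kb of exon plus 0.01, with 1 point per tumour (red, PCA group 3/4; blue, PCA group 1/2) and a black line at the median of the 39 tumours. Mmp7 has the highest mean, 96.3 CPM per kb, although its median, 0.560 CPM per kb, lies far down the order.

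The PCA comparison asked which genes separate the 10 tumours of PCA group 3/4 from the 29 of PCA group 1/2. Of the 46 members, 40 passed the low-count filter, and Mmp1a, Mmp1b, Mmp20, Mmp21, Adamts13 and Adamts19 did not. Calls required a change of at least 2-fold, up or down, together with a Benjamini-Hochberg adjusted p below 0.05. In PCA group 3/4, 7 members were called higher, against a background of 7.71% of all 19453 genes tested, and 7 were called lower, against a background of 6.45%. The median log2 fold change of the 40 members was -0.24, beside -0.05 for all genes tested. By role, the members called higher were matrilysin, 2 of 6 membrane-type Mmps, 2 of 5 tested other Mmps and 2 of 7 proteoglycan-cleaving Adamts. Those called lower were 3 of 7 proteoglycan-cleaving Adamts, 1 of 3 procollagen N-proteinases and 3 of 7 tested other Adamts. The collagenases, gelatinases, stromelysins and Timps had 0 calls. In edgeR, 8 of the 40 tested members had an unadjusted p under 0.05 in the higher direction, beside 3246 of all 19453 genes. In the lower direction 12 members did, beside 3408 of all genes. Within ID prefix 20 (7 against 11 tumours) 2 members were called higher (Mmp7 and Adamts9), against a background of 3.49% of 18478 genes, and 3 lower (Adamts1, Adamts4 and Adamts5), against 2.05%. Within ID prefix 21 (3 against 18 tumours) 7 were called higher, against a background of 6.33% of 21424 genes, and 6 lower, against 3.74%. The 7 hold Adamts13 and Mmp20, which were not tested in the comparison of all tumours, and lack Mmp12 and Mmp24. With 3 tumours in the smaller group the low-count filter was looser, and Adamts13 and Mmp20 were seen mainly in PCA group 3/4. Their calls therefore add no support. Those called higher both here and over all tumours were Mmp7, Mmp15, Mmp23, Adamts8 and Adamts9. Mmp12, Mmp24 and Adamts3 were called within neither prefix.

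In 4 animals tumours of both PCA groups were sampled (4 tumours of PCA group 3/4 and 5 of PCA group 1/2), and a fit with the animal as a fixed block compares tumours within these animals. In that edgeR fit 0 members were called higher, against a background of 1.11% of 19453 genes, and 0 lower, against 0.432%, while 3 members had an unadjusted p under 0.05 in the higher and 7 in the lower direction. The share of all genes at that unadjusted threshold is not given here for this fit. Mmp7 was higher in the PCA group 3/4 tumour than in every PCA group 1/2 tumour of the same animal in 4 of 4 animals (log2 fold change 10.48, adjusted p = 0.0905). Adamts8 (2.01, adjusted p = 0.101) and Adamts9 (2.06, adjusted p = 0.290) also lay above in 4 of 4 animals. Adamts1 lay below in 3 of 4 animals (log2 fold change -2.21, adjusted p = 0.0852), and Adamts3, Adamts4 and Adamts17 lay below in 4 of 4. So did Adamts6, Adamts16, Mmp2 and Mmp11, which were not called over all tumours. The share of all genes that lay above or below in 4 of 4 animals is not given here. With so few tumours per animal, such an order is weak evidence for a single gene. Mmp12 lay above in 2 and below in 2 animals (log2 fold change -0.40, adjusted p = 0.936). With the animal as a random block in limma voom, which uses all 39 tumours, 6 members were called higher and 5 lower, and the calls of Mmp12, Adamts3 and Adamts18 were lost. For that fit the share of all genes called is not given here.

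Mmp7 showed the largest fold change of the tested members. It had a lowest value of 2.31 CPM, a median of 106 CPM and a highest value of 1893 CPM in PCA group 3/4, against 0, 0.177 and 3.24 CPM in PCA group 1/2. The difference was 9.11 on the log2 scale (SE 0.83, adjusted p = 7.05e-11). It was 8.46 within ID prefix 20 (adjusted p = 0.00100) and 10.01 within ID prefix 21 (adjusted p = 3.24e-07). Of the 10 PCA group 3/4 tumours, 9 lay above the highest PCA group 1/2 tumour, and the remaining tumour (Lynfl/wt 19) lay within its range. The level was uneven within PCA group 3/4. Lynfl/fl 54 had 1893 CPM of Mmp7 and Lynfl/wt 8 had 1409 CPM. Lynfl/wt 25 had 233 CPM and Lynfl/wt 49 had 209 CPM, while Lynwt/wt 20 had 107 CPM and Lynfl/wt 30 had 105 CPM. The 4 remaining tumours were far lower, with 13.1 CPM of Mmp7 in Lynwt/wt 21, 12.6 CPM in Lynwt/wt 3, 7.03 CPM in Lynfl/wt 9 and 2.31 CPM in Lynfl/wt 19. At least 10 counts of Mmp7 were seen in 10 of 10 PCA group 3/4 tumours and in 17 of 29 PCA group 1/2 tumours, and 3 of 29 were at 0. Mmp7 was the Mmp with the highest level per length in 6 PCA group 3/4 tumours and in 0 PCA group 1/2 tumours, where Mmp14 led in 14 and Mmp15 in 8.

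Among the membrane-type Mmps, Mmp15 had 35.7, 295 and 674 CPM (lowest, median, highest) in PCA group 3/4, against 10.7, 105 and 478 CPM in PCA group 1/2. Its log2 fold change was 1.26 (SE 0.40, adjusted p = 0.0187), and 8 of 10 PCA group 3/4 tumours lay above the PCA group 1/2 median although the ranges overlapped. Mmp24, a membrane-type protease best known from the nervous system, had 1.06, 3.24 and 8.19 CPM in PCA group 3/4, against 0.129, 1.70 and 3.38 CPM in PCA group 1/2 (log2 fold change 1.05, SE 0.32, adjusted p = 0.0152). Here 5 of 10 PCA group 3/4 tumours lay above every PCA group 1/2 tumour, but without Lynfl/wt 8 the Mmp24 log2 fold change was 0.80 (adjusted p = 0.0782). The call of Mmp24 was also lost without Lynwt/wt 3 or Lynfl/fl 38, and that of Mmp15 without Lynfl/wt 19 or Lynfl/fl 54. Mmp14, the highest of these enzymes in median level per length, had 100.7, 187 and 369 CPM in PCA group 3/4, against 46.7, 212 and 390 CPM in PCA group 1/2 (log2 fold change -0.09, adjusted p = 0.827). Mmp16 had medians of 0.0804 CPM in PCA group 3/4 and 0.264 CPM in PCA group 1/2 and missed the threshold (log2 fold change -3.32, adjusted p = 0.0593). Without Lynwt/wt 3, its highest PCA group 3/4 tumour, Mmp16 was called lower (log2 fold change -5.11, adjusted p = 0.00959), as it was in DESeq2 (adjusted p = 0.00731) and with the ID prefix (adjusted p = 0.0322) or the genotype (adjusted p = 0.0395) as a covariate.

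Of the other Mmps, Mmp23, a membrane-bound enzyme without the usual cysteine switch, had 2.80, 11.5 and 91.0 CPM in PCA group 3/4, against 0.336, 4.42 and 19.9 CPM in PCA group 1/2 (log2 fold change 2.20, SE 0.46, adjusted p = 0.000407). The groups overlapped, with 4 of 10 PCA group 3/4 tumours above all PCA group 1/2 tumours. Mmp12, macrophage elastase, had 2.46, 34.0 and 859 CPM in PCA group 3/4, against 2.86, 29 and 170 CPM in PCA group 1/2 (log2 fold change 2.02, SE 0.54, adjusted p = 0.00513). Its medians were close, and 2 PCA group 3/4 tumours lay above every PCA group 1/2 tumour, Lynfl/wt 8 with 859 CPM and Lynfl/wt 30 with 368 CPM of Mmp12. Without Lynfl/wt 8 the Mmp12 log2 fold change was 1.02 (adjusted p = 0.175), and with the animal as a random block it was 0.69 (adjusted p = 0.465).

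The proteoglycan-cleaving Adamts genes moved in both directions. Adamts9, which cuts versican and aggrecan, had 26.8, 165 and 382 CPM in PCA group 3/4, against 6.37, 28.4 and 165 CPM in PCA group 1/2 (log2 fold change 2.26, SE 0.34, adjusted p = 3.24e-06). In Adamts9, 9 of 10 PCA group 3/4 tumours lay above the PCA group 1/2 median and 5 above its highest tumour, and the log2 fold change was 2.29 within ID prefix 20 and 2.46 within ID prefix 21. Adamts8, a relative with weak aggrecan-cleaving activity, had 7.53, 25.9 and 115 CPM in PCA group 3/4, against 1.16, 5.15 and 43.2 CPM in PCA group 1/2 (log2 fold change 2.02, SE 0.46, adjusted p = 0.00119). All 10 PCA group 3/4 tumours lay above the PCA group 1/2 median of Adamts8. Adamts15, the gene beside Adamts8 (chr9:30899155-30922452 and chr9:30942562-30963838), was not called (log2 fold change -0.999, adjusted p = 0.115).

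Adamts1, a versican-cleaving enzyme, had 4.39, 12 and 57.4 CPM in PCA group 3/4, against 17.1, 60.5 and 174 CPM in PCA group 1/2 (log2 fold change -1.90, SE 0.38, adjusted p = 0.000247). All 10 PCA group 3/4 tumours lay below the PCA group 1/2 median of Adamts1 and 6 lay below its lowest tumour. Adamts4 and Adamts5 encode the main aggrecanases of cartilage. Adamts4 had 5.69, 12.1 and 64.5 CPM in PCA group 3/4, against 7.71, 94.9 and 417 CPM in PCA group 1/2 (log2 fold change -2.46, SE 0.56, adjusted p = 0.00117). Adamts5 had 1.70, 3.96 and 17.8 CPM in PCA group 3/4, against 3.54, 16.7 and 165 CPM in PCA group 1/2 (log2 fold change -2.16, SE 0.56, adjusted p = 0.00387). The ranges of both overlapped. In Adamts4 all 10 PCA group 3/4 tumours, and in Adamts5 9 of them, lay below the PCA group 1/2 median. Adamts1 and Adamts5 lie near each other on chromosome 16 (chr16:85793827-85803113 and chr16:85856173-85901828).

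The procollagen N-proteinase Adamts3, which also activates the lymphatic growth factor Vegfc, had 1.25, 3.12 and 9.18 CPM in PCA group 3/4, against 0, 8.32 and 38.4 CPM in PCA group 1/2 (log2 fold change -1.85, SE 0.59, adjusted p = 0.0189). The Adamts3 call was lost within ID prefix 20 (log2 fold change -1.69, adjusted p = 0.0798), within ID prefix 21 (-2.57, adjusted p = 0.199) and with the animal as a random block (-1.30, adjusted p = 0.285). The other procollagen N-proteinases, Adamts2 and Adamts14, were not called (log2 fold changes -0.53 and -0.74). Among the other Adamts genes, Adamts18 had 0.0664, 0.270 and 4.38 CPM in PCA group 3/4, against 0, 8.27 and 114 CPM in PCA group 1/2 (log2 fold change -4.26, SE 1.03, adjusted p = 0.00212). All 10 PCA group 3/4 tumours lay below the PCA group 1/2 median of Adamts18, yet the ranges overlapped because some PCA group 1/2 tumours were as low. With the animal as a random block the Adamts18 log2 fold change was -3.84 (adjusted p = 0.0737), and within ID prefix 20 it was -3.38 (adjusted p = 0.0826). Adamts10, which acts on fibrillin microfibrils, had 7.86, 19.2 and 43.8 CPM in PCA group 3/4, against 18.6, 41.8 and 127 CPM in PCA group 1/2 (log2 fold change -1.25, SE 0.31, adjusted p = 0.00254). Adamts17, whose loss in humans gives a syndrome of short stature and lens dislocation, had 0.0586, 0.376 and 1.34 CPM in PCA group 3/4, against 0.285, 1.25 and 11.7 CPM in PCA group 1/2 (log2 fold change -2.06, SE 0.60, adjusted p = 0.0101). The Adamts17 log2 fold change was -0.85 within ID prefix 20 (adjusted p = 0.342), -4.57 within ID prefix 21 (adjusted p = 0.0225) and -1.67 with the ID prefix as a covariate (adjusted p = 0.0657). In Adamts10 and in Adamts17, 9 of 10 PCA group 3/4 tumours lay below the PCA group 1/2 median.

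**Figure D2:**
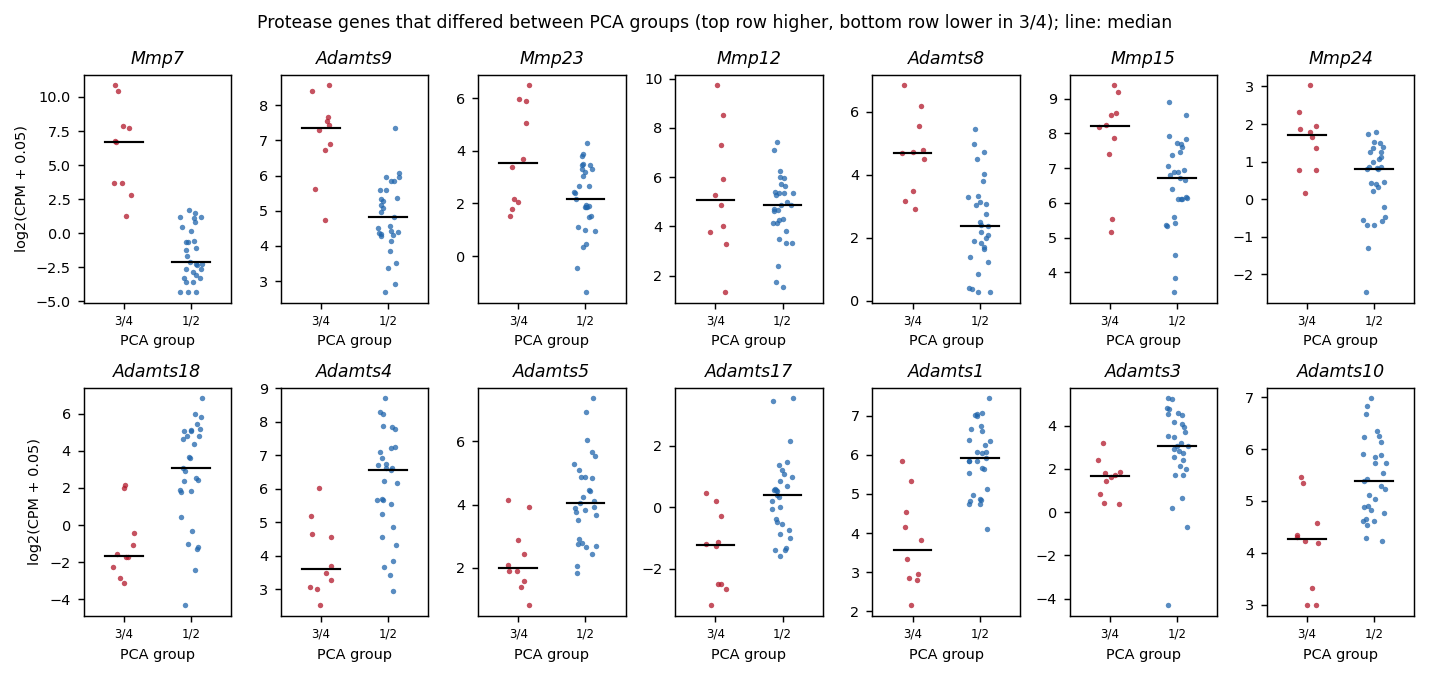
The 14 members called between PCA groups, as log2 of CPM plus 0.05, with 1 point per tumour (left, the 10 of PCA group 3/4; right, the 29 of PCA group 1/2) and a black line at the median. In Mmp7, 9 of the 10 PCA group 3/4 tumours sit above all PCA group 1/2 tumours, whereas the Mmp12 medians are close.

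The Timps were not called. Timp1 had 5.42, 13.2 and 429 CPM in PCA group 3/4, against 4.21, 33.9 and 335 CPM in PCA group 1/2 (log2 fold change 0.52, adjusted p = 0.556), so its median and its fitted mean differ in direction. The highest Timp1 values were in Lynfl/wt 8 (429 CPM) and Lynwt/wt 4 (335 CPM). Timp2 had 160, 308 and 1312 CPM in PCA group 3/4, against 41.7, 196 and 991 CPM in PCA group 1/2 (log2 fold change 0.41, adjusted p = 0.457). Timp3 had 47.3, 148 and 358 CPM in PCA group 3/4, against 14.4, 182 and 1336 CPM in PCA group 1/2 (log2 fold change -0.85, adjusted p = 0.245). Timp4 was near the lower limit, with medians of 0.417 CPM in PCA group 3/4 and 0.102 CPM in PCA group 1/2 (log2 fold change -0.27, adjusted p = 0.865).

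Adamts13 (which cuts von Willebrand factor) and Mmp20 (enamelysin, a tooth enamel protease) did not pass the filter but were seen mainly in PCA group 3/4. Adamts13 had 0.0771, 2.15 and 19.4 CPM in PCA group 3/4, against 0, 0 and 0.784 CPM in PCA group 1/2, with at least 10 counts in 7 of 10 and in 1 of 29 tumours. Mmp20 had 0, 0.717 and 5.03 CPM in PCA group 3/4, against 0, 0 and 0.132 CPM in PCA group 1/2, with at least 10 counts in 6 of 10 and in 1 of 29 tumours. In a fit without the filter, the log2 fold change was 6.64 for Adamts13 and 7.12 for Mmp20, sizes that depend on how the zeros are handled. Both genes were picked because of their values in PCA group 3/4. A p-value from the same values adds no support and is not given. The remaining members outside the filter were sparse. Mmp1a and Mmp1b, grouped here with the collagenases, were near 0, and a loss of reads that align to several genes was not tested. The gene annotation lists Mmp1a as a polymorphic pseudogene. Mmp1a reached at least 10 counts in 0 of 10 PCA group 3/4 and 3 of 29 PCA group 1/2 tumours, and Mmp1b in 1 of 10 and 3 of 29. Mmp1b also overlaps Mmp12 on the opposite strand, and the use of strand in the counting is not given in the sources used here. Adamts19 reached 10 counts in 0 of 10 PCA group 3/4 and 3 of 29 PCA group 1/2 tumours, and Mmp21 in 0 of 39.

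On chromosome 9, Mmp7 (chr9:7692090-7699585) and Mmp20 are the cluster genes nearest to Tmem123, Birc2, Birc3 and Yap1. Birc2 and Birc3 encode inhibitors of apoptosis and Yap1 a coactivator of the Hippo pathway. Birc2 had 107, 263 and 668 CPM in PCA group 3/4, against 21.2, 36.0 and 237 CPM in PCA group 1/2 (log2 fold change 2.85, adjusted p = 2.07e-10). Birc3 had 98.1, 195 and 325 CPM in PCA group 3/4, against 8.41, 35.2 and 306 CPM in PCA group 1/2 (log2 fold change 2.10, adjusted p = 2.78e-06), and Tmem123 had a median of 541 CPM in PCA group 3/4, against 174 CPM in PCA group 1/2 (log2 fold change 1.57, adjusted p = 2.37e-05). Yap1, farther along, had 172, 194 and 247 CPM in PCA group 3/4, against 116, 214 and 1869 CPM in PCA group 1/2 (log2 fold change -0.48, adjusted p = 0.257). Dync2h1, a motor subunit of cilia on the far side of the cluster, had a log2 fold change of -0.98 (adjusted p = 0.0200), under the 2-fold limit of a call, and Dcun1d5 one of -0.24 (adjusted p = 0.659). Lynwt/wt 4, in PCA group 1/2, stood apart in Yap1 (1869 CPM), Tmem123 (1223 CPM) and Dcun1d5 (844 CPM), and its 3.24 CPM of Mmp7 was the highest of PCA group 1/2. Lynwt/wt 59 was next, with 447 CPM of Yap1 and 2.82 CPM of Mmp7. Of the tested cluster genes, Mmp13, Mmp3, Mmp10, Mmp8 and Mmp27 were not called, with log2 fold changes of -0.77, -0.86, -0.99, 0.34 and 0.77. Copy number of this stretch was not measured here.

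Within each PCA group, Mmp7 was set against the mean log2 CPM of Yap1, Birc2, Tmem123 and Dcun1d5, in a family of 14 correlations (7 cluster genes in 2 groups). In PCA group 3/4 (10 tumours) Pearson's r for Mmp7 was 0.69 (permutation p = 0.0281, adjusted p = 0.197) and Spearman's rho 0.77 (permutation p = 0.0125, adjusted p = 0.0874), so the relation did not pass the correction. Without the 2 tumours farthest from the median, Lynwt/wt 3 and Lynfl/wt 49, r was 0.79 (exact permutation p = 0.0206), and in the 7 tumours of ID prefix 20 it was 0.69 (exact permutation p = 0.0938). In PCA group 1/2 (29 tumours) r was 0.54 (permutation p = 9e-05, adjusted p = 0.00126) and rho 0.55 (permutation p = 0.00225, adjusted p = 0.0315). Mmp7 lay near the lower limit in that group, as its values above show, so the relation there rests on low counts. Without Lynwt/wt 59 and Lynwt/wt 4, r in PCA group 1/2 was 0.48 (permutation p = 0.0116), and it was 0.67 in the 11 tumours of ID prefix 20 (permutation p = 0.0027) and 0.51 in the 18 of ID prefix 21 (permutation p = 0.0273). For the other 6 cluster genes r lay between -0.32 and 0.50 in PCA group 3/4 and between -0.13 and 0.30 in PCA group 1/2, with adjusted p from 0.401 to 0.948. Of these, Mmp27 had an r of 0.80 (exact permutation p = 0.0113) and a rho of 0.93 (exact permutation p = 0.00675) in the 7 PCA group 3/4 tumours of ID prefix 20, above the r of Mmp7 in the same tumours.

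**Figure D3:**
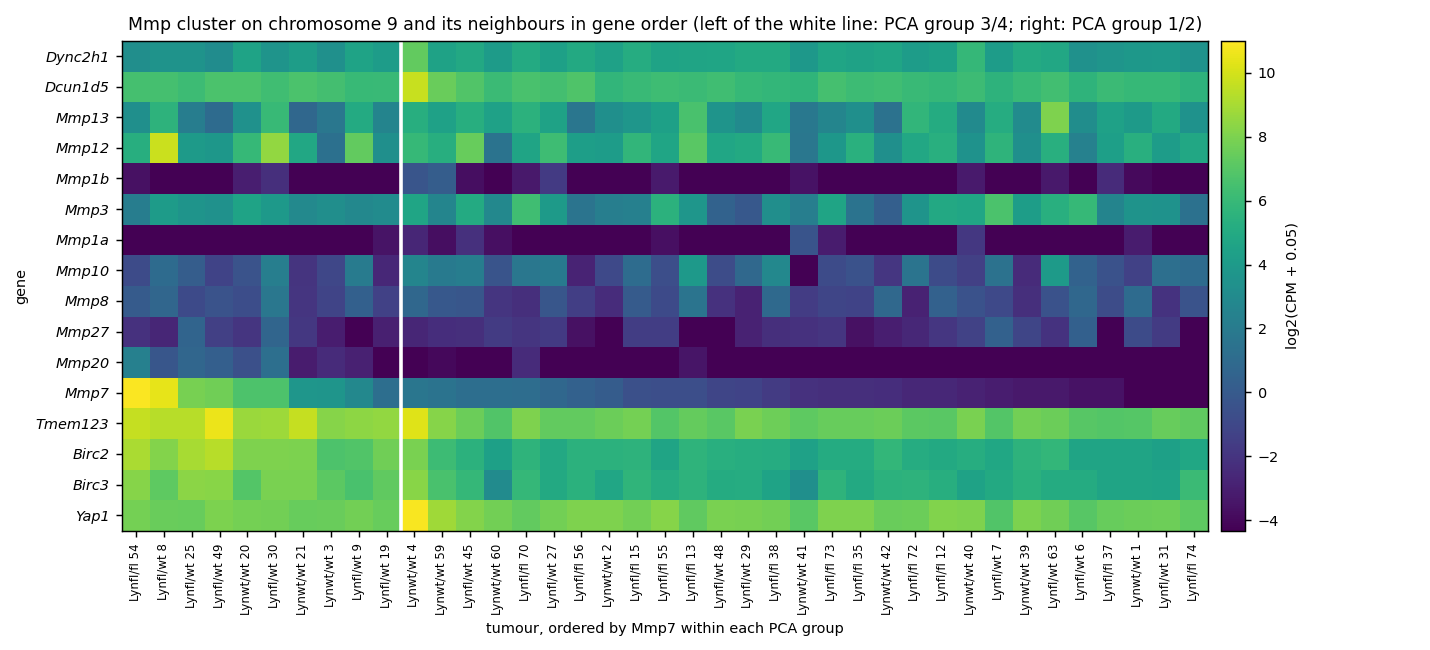
Heat map of the Mmp cluster and its neighbours in chromosome order, with 1 column per tumour, ordered by Mmp7 within PCA group 3/4 (left of the white line) and PCA group 1/2 (right), and colour giving log2 of CPM plus 0.05. Mmp7, Mmp20, Tmem123, Birc2 and Birc3 are brighter on the left, and Lynwt/wt 4 is the bright column just right of the line, with 1869 CPM of Yap1.

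Genes that work with the members were counted on lists chosen with earlier results known. Of 10 tested ADAM proteases, 1 was called higher in PCA group 3/4 (Adam33, log2 fold change 2.12) and 0 lower. Of 7 Adamts-like proteins, which resemble Adamts enzymes but lack the protease domain, 0 were called higher and 1 lower. This was papilin (Papln), with 0.344, 3.04 and 17.7 CPM in PCA group 3/4, against 7.88, 72.6 and 129 CPM in PCA group 1/2 (log2 fold change -3.78, adjusted p = 4.34e-06). Of 18 activators and inhibitors, 1 was called higher (Spint2, an inhibitor of matriptase and hepsin, log2 fold change 1.30) and 2 lower (Serpine2, log2 fold change -2.18, and the proprotein convertase Pcsk6, -1.90). Of 14 other matrix-degrading proteases, 4 were called higher and 3 lower, with the cathepsins Ctsh (log2 fold change 2.08), Ctsz (1.43) and Ctss (1.44) among the higher. Of 17 tested matrix substrates, 0 were called higher and 2 lower, both genes of cartilage matrix, namely Comp (log2 fold change -6.89, adjusted p = 0.000106) and Acan (aggrecan, log2 fold change -5.43, adjusted p = 0.0211).

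Marker genes of several cell types also differed. In PCA group 3/4, 6 of 9 macrophage markers were called higher, and their summed level was 2421 to 8948 CPM in PCA group 3/4, against 598 to 3738 CPM in PCA group 1/2. For T cells, 3 of 7 markers were called higher, with sums of 10.8 to 173 CPM in PCA group 3/4, against 2.28 to 56.4 CPM in PCA group 1/2. Fibroblast markers had 0 called higher and 1 lower of 11, with sums of 724 to 13132 CPM in PCA group 3/4, against 266 to 9860 CPM in PCA group 1/2. For osteoblasts and chondrocytes, 1 of 5 tested markers was called higher and 3 lower. Of 9 luminal and pan-epithelial markers, 2 were called higher (Cldn4 and Krt19) and 0 lower. Basal markers had 2 of 8 called higher (Myh11, log2 fold change 5.61, and Krt17, 2.21) and 0 lower. Higher calls were also made for 1 of 7 B cell markers (Cr2, 9.84) and 2 of 5 tested osteoclast markers, with 0 lower in either. Endothelial markers had 1 of 8 called lower, and 0 of 8 neutrophil markers were called. The part of these cells in the Mmp7, Mmp12, Adamts4 and Adamts5 results was not tested.

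The Lyn comparison set the 13 Lyn-high against the 13 Lyn-low tumours. In Lyn-high tumours 5 of the 40 tested members were called higher, against a background of 5.52% of 17709 genes, and 0 were called lower, against a background of 0.508%. In the lower direction 2 members had an unadjusted p under 0.05 in edgeR, beside 1182 of all 17709 genes, and 0 members were called by DESeq2. The median log2 fold change of the members was 0.42, beside 0.03 for all genes tested. Within ID prefix 20 (9 against 4 tumours) and within ID prefix 21 (4 against 9 tumours) 0 members were called in either direction. The background was 1.49% of 19209 genes higher and 0.0885% lower within ID prefix 20, and 0.0% of 19468 genes in both directions within ID prefix 21, where no gene at all was called. With the animal as a fixed block, which rests on 2 animals with tumours in both Lyn groups, 0 members were called, against a background of 0.0% in both directions, and 5 had an unadjusted p under 0.05 in the higher and 0 in the lower direction in edgeR. The share of all genes at that unadjusted threshold is not given here for the block.

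Mmp9 (gelatinase B, an enzyme of leukocytes and osteoclasts) had 2.37, 36.2 and 110 CPM in Lyn-high tumours, against 2.35, 7.02 and 29.5 CPM in Lyn-low tumours (log2 fold change 2.13, SE 0.47, adjusted p = 0.00393), and 9 of 13 Lyn-high tumours lay above the highest Lyn-low value. Within ID prefix 20 the Mmp9 log2 fold change was 1.71 (adjusted p = 0.244) and within ID prefix 21 it was 2.3 (adjusted p = 0.401), neither past the threshold. Mmp25, a lipid-anchored protease first described in leukocytes, had 1.03, 1.87 and 7.06 CPM in Lyn-high tumours, against 0.214, 0.635 and 2.07 CPM in Lyn-low tumours (log2 fold change 1.60, SE 0.35, adjusted p = 0.00361). In Mmp25 the Lyn-low median lay below all 13 Lyn-high values. Timp2, which blocks gelatinase A and also helps Mmp14 to activate it, had 60.8, 314 and 1312 CPM in Lyn-high tumours, against 41.7, 183 and 312 CPM in Lyn-low tumours (log2 fold change 1.18, SE 0.33, adjusted p = 0.0267). Its call was lost without Lynwt/wt 3, Lynfl/fl 13 or Lynwt/wt 60. Mmp23 had 1.90, 9.84 and 91.0 CPM in Lyn-high tumours, against 0.336, 3.63 and 14.6 CPM in Lyn-low tumours (log2 fold change 2.04, SE 0.60, adjusted p = 0.0347), and its call was lost in 10 of 26 fits that left out 1 tumour (Lynfl/fl 35, 37, 38, 56 or 73, Lynfl/wt 8, 25 or 29, Lynwt/wt 2 or 21), with an adjusted p of up to 0.115. Mmp7 had 0.0341, 2.31 and 1409 CPM in Lyn-high tumours, against 0, 0.271 and 3.24 CPM in Lyn-low tumours (log2 fold change 7.56, SE 1.59, adjusted p = 0.00245). Here 5 Lyn-high tumours lay above every Lyn-low tumour, and the rest fell in the Lyn-low range, while the Mmp7 log2 fold change was 7.36 within ID prefix 20 (adjusted p = 0.208) and 1.30 within ID prefix 21 (adjusted p = 0.874). In the lower direction Adamts17 (log2 fold change -1.39, adjusted p = 0.153), Mmp16 (-2.51, adjusted p = 0.169) and Adamts4 (-1.10, adjusted p = 0.266) had the smallest p-values and were not called.

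Since PCA group 3/4 holds 0 Lyn-low tumours, the Lyn comparison was repeated within PCA group 1/2 (7 Lyn-high against 13 Lyn-low tumours). There 1 member, Mmp9, was called higher, against a background of 1.55% of 18863 genes, and 0 were called lower, beside 3 of all genes. In the lower direction 0 members had an unadjusted p under 0.05 in edgeR, beside 720 of all genes. Mmp9 had a median of 62.1 CPM in these Lyn-high tumours (range 2.37 to 77.6), against 7.02 CPM in Lyn-low tumours (log2 fold change 2.24, SE 0.51, adjusted p = 0.0267). Mmp25 had a median of 2.59 CPM in the Lyn-high tumours of PCA group 1/2, against 0.635 CPM in Lyn-low tumours, and just missed the threshold (log2 fold change 1.46, adjusted p = 0.0603). Timp2 had a log2 fold change of 0.95 (adjusted p = 0.243) and Mmp23 of 0.86 (adjusted p = 0.62). Mmp7 had a median of 0.177 CPM in the Lyn-high tumours of PCA group 1/2, against 0.271 CPM in Lyn-low tumours (log2 fold change 0.18, SE 1.01, adjusted p = 0.97), while in the 6 Lyn-high tumours of PCA group 3/4 its median was 60.1 CPM. Among Lyn-high tumours, PCA group 3/4 (6 tumours) against PCA group 1/2 (7 tumours) gave 2 members called higher, Mmp7 (log2 fold change 8.42, adjusted p = 0.0197) and Adamts9 (2.38, adjusted p = 0.0295), against a background of 1.36%. In that comparison 0 members were called lower, against a background of 0.796%. In that direction 10 members had an unadjusted p under 0.05 in edgeR, beside 1646 of all 18226 genes.

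**Figure D4:**
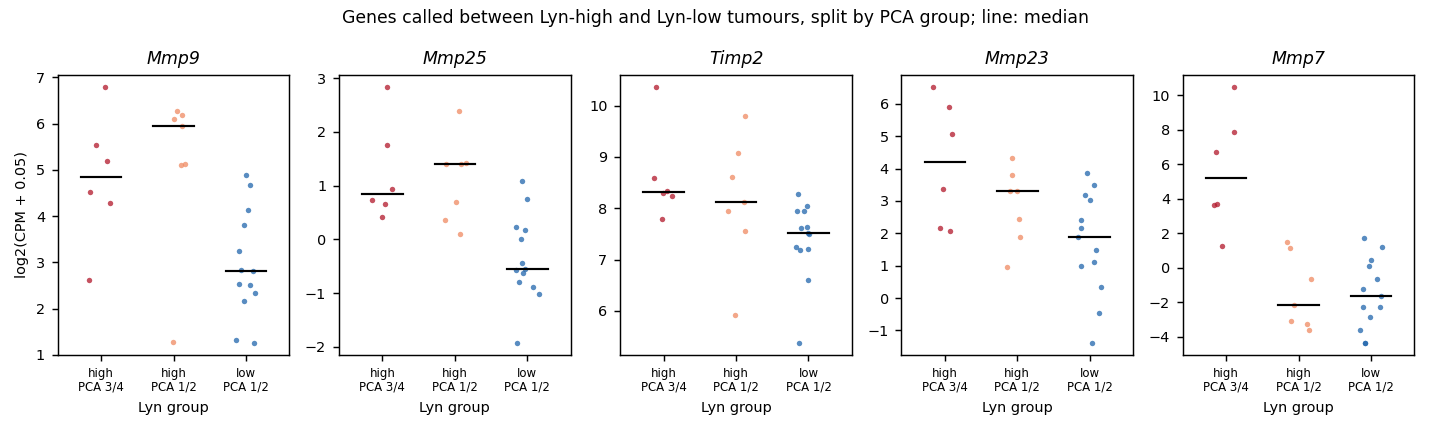
The 5 members called between Lyn-high and Lyn-low tumours, as log2 of CPM plus 0.05, with 1 point per tumour and a black line at the median of Lyn-high tumours of PCA group 3/4, Lyn-high tumours of PCA group 1/2 and Lyn-low tumours (all PCA group 1/2). Mmp9 is high in both Lyn-high sets, with medians of 29.5 CPM (PCA group 3/4) and 62.1 CPM (PCA group 1/2), against 7.02 CPM in Lyn-low tumours, whereas Mmp7 is high only in the PCA group 3/4 set.

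Leukocyte markers moved with the Lyn groups. In Lyn-high tumours 7 of 9 macrophage markers were called higher (sums of 974 to 8948 CPM in Lyn-high, against 598 to 1860 CPM in Lyn-low tumours), as were 7 of 7 T cell markers (2.79 to 173 CPM in Lyn-high, against 2.28 to 10.4 CPM in Lyn-low tumours) and 5 of 5 tested B cell markers (5.30 to 320 CPM in Lyn-high, against 1.03 to 5.26 CPM in Lyn-low tumours). Sums cover all listed genes, tested or not. The B cell sum holds Cr2, which was not tested in the Lyn comparison and reached 510 CPM over all tumours. The next highest B cell marker, Cd22, reached 25.9 CPM, so the upper end of that sum rests mainly on Cr2. For neutrophils, 2 of 6 tested markers were called higher (Csf3r and Ltf), with sums of 17.5 to 1907 CPM in Lyn-high, against 15.0 to 128 CPM in Lyn-low tumours. Ltf alone reached 1870 CPM, while S100a8 reached at most 93.0 CPM and S100a9 73.2 CPM, so the upper end of the sum rests on Ltf. Ly6g, the defining neutrophil marker, was at 0 in 5 of 13 Lyn-high and 5 of 13 Lyn-low tumours and reached at most 0.273 CPM in Lyn-high and 0.299 CPM in Lyn-low tumours. The part of these cells in the Mmp9, Mmp25 and Timp2 results was not tested. Of the related lists, the other matrix-degrading proteases had 2 of 14 called higher, Ctss (log2 fold change 1.86, adjusted p = 0.000207) and Ctsh (1.26, adjusted p = 0.00934), and the other 4 lists had 0 calls.

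By genotype, 0 of the 40 tested members were called. The submitters reported that the floxed Lyn allele was recombined in cultures of some tumours but still intact in others. Genotype is therefore an incomplete measure of Lyn loss in a given tumour. Across all 18998 genes tested the background was 0.0316% for Lynfl/fl against Lynwt/wt, 0.0158% for Lynfl/wt against Lynwt/wt and 0.0% for Lynfl/fl against Lynfl/wt. For Lynfl/fl against Lynwt/wt, 2 members had an unadjusted p under 0.05 in edgeR and 0 were called by DESeq2. The 2 members were Timp3 (higher) and Mmp28 (lower), beside 774 of all genes in the higher and 1418 in the lower direction. Timp3 had 28.7, 214 and 822 CPM in Lynfl/fl tumours and 47.3, 188 and 1336 CPM in Lynfl/wt tumours, against 14.4, 113 and 369 CPM in Lynwt/wt tumours (Lynfl/fl over Lynwt/wt, log2 fold change 1.19, adjusted p = 0.373). Mmp28 (epilysin, found in skin and other epithelia) had medians of 1.93 CPM in Lynfl/fl, 3.05 CPM in Lynfl/wt and 2.48 CPM in Lynwt/wt tumours (log2 fold change -0.83, adjusted p = 0.387). The ranges of all 3 genotypes overlapped in both genes.

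Mmp7 had 0, 0.271 and 1893 CPM in Lynfl/fl tumours, 0, 1.99 and 1409 CPM in Lynfl/wt tumours and 0, 1.64 and 107 CPM in Lynwt/wt tumours. The fitted log2 fold change of Lynfl/fl over Lynwt/wt was 3.63 (SE 1.83, adjusted p = 0.443), opposite in sign to the medians. It rested on Lynfl/fl 54, without which the Mmp7 value was -4.53. Mmp13 (collagenase 3) had medians of 21.3 CPM in Lynfl/fl, 27.3 CPM in Lynfl/wt and 9.17 CPM in Lynwt/wt tumours (log2 fold change of Lynfl/fl over Lynwt/wt 1.13, adjusted p = 0.475). Mmp2 (gelatinase A) had medians of 28.8 CPM in Lynfl/fl, 50.5 CPM in Lynfl/wt and 64.4 CPM in Lynwt/wt tumours (log2 fold change -0.90, adjusted p = 0.443), and Timp1 had medians of 27.6 CPM in Lynfl/fl, 35.9 CPM in Lynfl/wt and 52.6 CPM in Lynwt/wt tumours (log2 fold change -1.23, adjusted p = 0.447). None of these differences passed the threshold. For Lynfl/wt against Lynwt/wt, 10 members had an unadjusted p under 0.05 in edgeR, 7 higher and 3 lower, beside 846 and 1277 of all 18998 genes. Mmp12 came first (log2 fold change 2.43, adjusted p = 0.153).

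**Figure D5:**
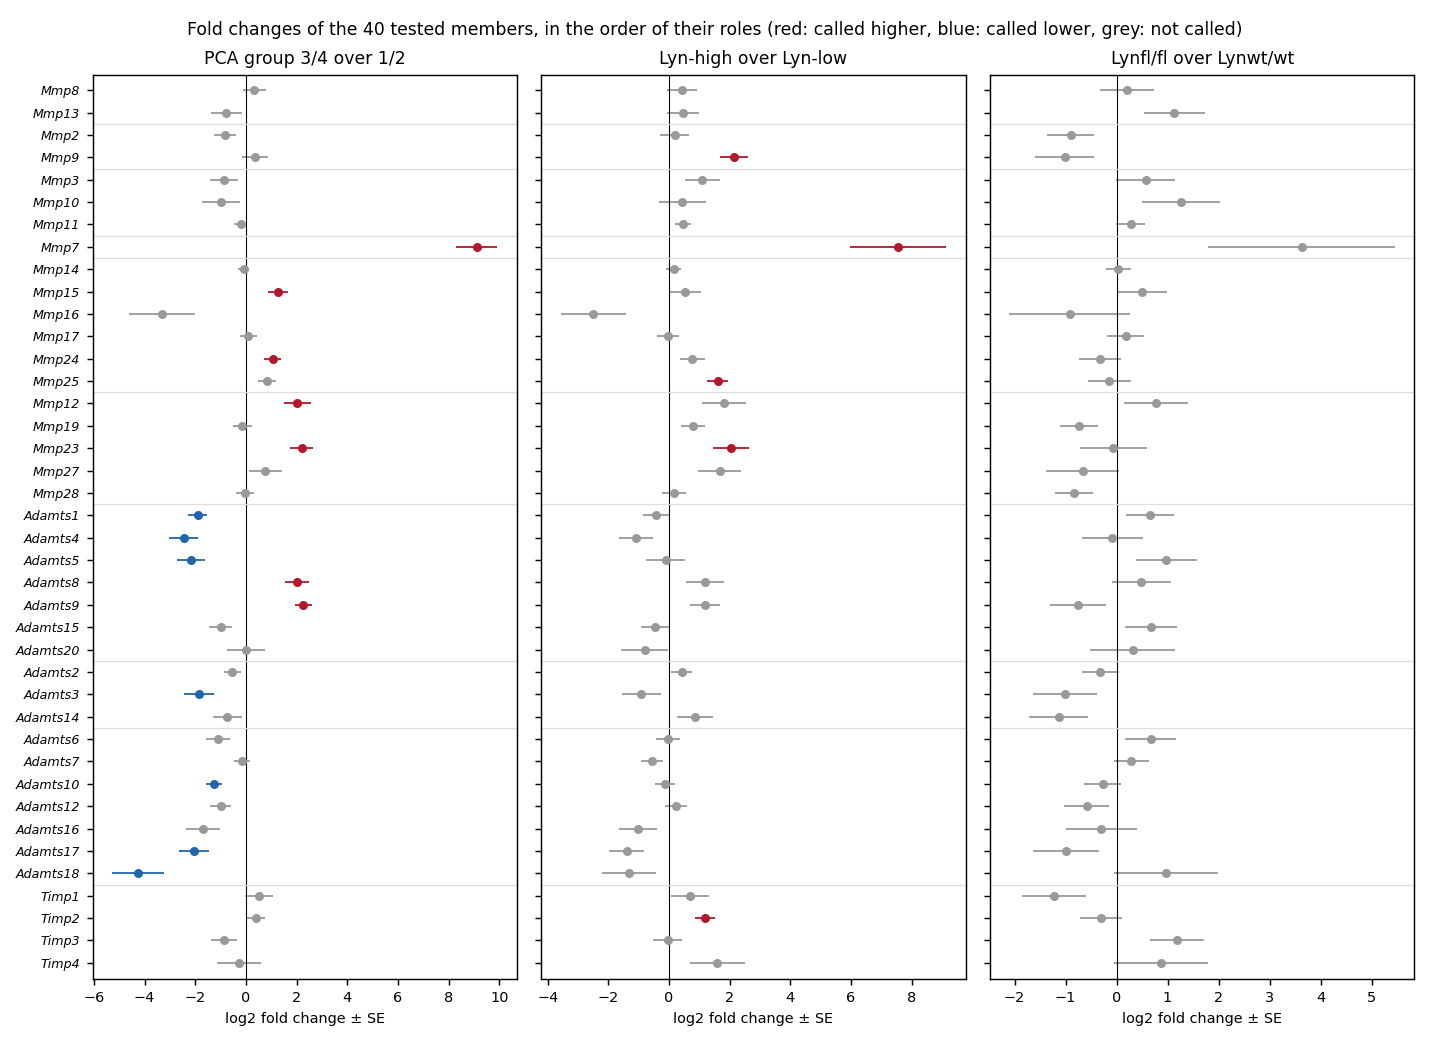
Log2 fold changes with SE of the 40 tested members, in order of their roles, for PCA group 3/4 over 1/2 (left), Lyn-high over Lyn-low (middle) and Lynfl/fl over Lynwt/wt (right). Red points were called higher and blue points lower, with 7 and 7 in the left panel, 5 and 0 in the middle panel and 0 and 0 in the right panel.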

How the data were processed

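One stranded poly(A) library per tumour was sequenced from both ends. Per the labels and the methods, the authors used fastp for trimming and STAR 2.5.1b for alignment to GRCm38, counted reads per Gencode gene with featureCounts 1.5.1 and deposited the raw counts, the unit used here, beside normalised values, fold changes and p-values that were not used. Of counts from 1 to 10, 79.77% were even, as when the 2 reads of a fragment are counted separately, so the counting error is larger than the totals imply.

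Groups were taken from the labels. Counts were tested with edgeR 4.0.16 in R 4.3.3 (filterByExpr, TMM, quasi-likelihood F test) over all genes kept, with Benjamini-Hochberg adjustment, and calls needed both an adjusted p below 0.05 and a 2-fold difference. The PCA fit used 39 tumours, the Lyn fit 26 and the genotype fit 39. Levels are TMM-scaled CPM, and levels per length use the summed exon length of Gencode vM21. Correlations used log2 CPM (prior count 2) and 100000 permutations, or all permutations for fewer than 10 tumours. Motifs were 12 in number and were searched on both strands. The edgeR fit was tested on simulated data. Alternatives used DESeq2 1.42.0, limma 3.58.1, other filters, scaling, covariates and subsets, the animal as a random block (limma voom) or as a fixed block (edgeR), and each tumour left out in turn.

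The text names members called in a main comparison, the 3 of lowest p per direction in each, the 4 Timps, the 6 with the highest mean level per length and the tested members of the chromosome 9 cluster. Mmp20, Adamts13 and other members outside this rule were singled out after their values were seen. The members and lists were chosen with earlier results of these data known.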

Additional observations from a re-analysis of the deposited data

Results flagged for a closer look

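Within the 10 tumours of PCA group 3/4, the highest and the lowest value of each of the 40 tested members were set against the spread of the others (80 tests), using the gap to the nearest tumour as a share of the group's range, judged by Dixon's critical value. Chance marks about 1 group in 20. In 3 members 1 tumour stood apart. Timp2 was highest in Lynwt/wt 3, with 1312 CPM and a gap of 0.5257 of the range. Mmp16 was highest in the same tumour, with 2.62 CPM and a gap of 0.4983. Mmp2 was highest in Lynfl/wt 25, with 102 CPM and a gap of 0.4751.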

How the results depend on the processing

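Of the members called in PCA group 3/4, Mmp7 and Adamts9 were called in 11 of 12 alternatives (all but the animal as a fixed block, where 0 were called in either direction) and in all 39 fits that left out 1 tumour. The count called higher (7) was 2 among Lynfl/wt tumours only, 2 among Lyn-high tumours only and 2 in ID prefix 20 only, and 5 to 7 when 1 tumour was left out. The count called lower (7) was 4, 0 and 3 under the same subsets, and 7 to 8 when 1 tumour was left out. These subsets hold fewer tumours. Among Lynfl/wt tumours 595 of all 18296 genes were called higher and 381 lower. The shares over all genes were 1.36% and 0.796% among Lyn-high tumours and 3.49% and 2.05% in ID prefix 20. DESeq2 called 9 higher and 10 lower, adding Adamts13, Mmp20, Mmp16, Adamts6 and Adamts16, and the ID prefix as a covariate gave 6 and 9, adding Mmp16, Adamts6 and Adamts12. For the DESeq2, covariate, random block and leave-one-out fits the share over all genes is not given here. Counts from those fits, here and below, describe the fits and are not results about the members. The count called higher in Lyn-high tumours (5) was 2 with the ID prefix as a covariate, 2 with limma voom and the animal as a random block, 1 in PCA group 1/2 only, 3 with genotype as a covariate, and 0 in ID prefix 20 only, in ID prefix 21 only and with the animal as a fixed block. It was 4 to 5 when 1 tumour was left out, and the count called lower (0) was 0 to 1, with Mmp16 called without Lynfl/wt 6 and Adamts4 without Lynwt/wt 59. In the PCA comparison, Mmp12 lost its call in 7 of 12 alternatives, with a log2 fold change of -0.396 with the animal as a fixed block. Under that block the Lyn values of Adamts17 (0.5618), Mmp16 (0.9383) and Adamts4 (0.0279), none of them called, also changed sign. The genotype counts stayed at 0 under every alternative run. For Lynfl/fl against Lynwt/wt, the Mmp7 log2 fold change (3.63) changed sign in DESeq2 (-2.38), limma voom with the animal block (-0.95), PCA group 1/2 only (-1.12), ID prefix 20 only (-5.95) and without Lynfl/fl 54, ranging from -4.53 to 5.52 when 1 tumour was left out. That of Mmp28 (-0.83) was 0.0908 in ID prefix 21 only. The cause was not tested. The fits within 1 ID prefix and with the animal as a fixed block were chosen after seeing the data. Genotype could not be fitted within animals, since tumours of an animal share it.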
